A study of Mus musculus with 2 samples.

Results

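The hyaluronan genes described here are 10 genes taken by name for their roles in making, degrading or binding hyaluronan, out of 24532 genes in the deposited count table. They comprise the synthases *Has1*, *Has2* and *Has3*, the hyaluronidases *Hyal1* and *Hyal2*, the receptor gene *Cd44*, the proteoglycan genes *Vcan* and *Acan*, the link protein gene *Hapln1*, and *Tnfaip6*. The cells were myofibroblasts, the matrix-producing cells that arise in injured tissue, taken from mouse hearts (C57BL/6 in the labels and C57BL/6J in the methods of the study) 3 days after myocardial infarction (MI) and depleted of CD45-positive cells. One culture was transfected with 12.5 nM control siRNA (siCtrl) and the other with 12.5 nM siRNA against *Vgll3* (si*Vgll3*), a cofactor of the TEAD transcription factors, and RNA was taken 72 h later. Both cultures shared the infarction, the depletion and the transfection, 1 siRNA was used against *Vgll3*, and there was 1 library per condition. The labels give neither the number of animals behind each culture nor their age. The methods of the study state that male mice were used for the infarction and give their age range. With 1 library per condition, no difference below has a replicate check, no test of the conditions was possible, and no p-value is given.

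Hyaluronan is a long, unsulfated sugar polymer that the HAS enzymes extrude through the plasma membrane from UDP-glucuronic acid and UDP-N-acetylglucosamine. Outside the cell it carries aggregating proteoglycans such as versican and aggrecan, fixed to it by link proteins, and it binds the receptor CD44, while hyaluronidases cut it into fragments. In the infarcted heart, hyaluronan is part of the provisional matrix in which fibroblasts and leukocytes move.

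The siCtrl library held 140815237 gene-assigned reads and the si*Vgll3* library 125789276. Levels are given as TPM, which scales reads for both the length of a gene and the size of the library. The targeted gene, *Vgll3*, had a siCtrl level of 202 TPM and a si*Vgll3* level of 84.0 TPM. M is the log2 ratio of the TPM in si*Vgll3* to that in siCtrl, and A is the log2 of their mean TPM. A gene with A > 0 was counted as lower at M < −0.5 and as higher at M > 0.5, the study's thresholds for lower genes and their mirror for higher ones. Square brackets after M give the 95% Clopper-Pearson interval of the read-count ratio, shifted onto the TPM ratio, and those after TPM give the exact Poisson interval. Both intervals treat every read as independent, cover counting error only and describe these 2 libraries, not the conditions. Several reads can come from one molecule, so the intervals may be too narrow even for counting error. In bulk cultures such as these, fewer cells of a type and less RNA per cell cannot be told apart.

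All 10 genes had reads in both libraries, and 7 of them had A > 0. *Hyal1* was lower in si*Vgll3*, *Has1* and *Tnfaip6* were higher, and *Has2*, *Hyal2*, *Cd44* and *Vcan* lay between the thresholds. *Has1* passed the filter on A through si*Vgll3*, since it was below 1 TPM in siCtrl, and it had no call when A was taken from averaged log2 values. Among all 11754 genes with A > 0, 11.4% were lower and 5.73% were higher by the same rule. With A as defined here 1341 genes were lower, and with A from averaged log2 values 1313 were. The second number is the nearer to the count of lower genes that the study reported. The median M of the 7 genes was 0.20, against −0.05 for all genes with A > 0, and it was 0.057 over the 6 genes left with A from averaged log2 values. The remaining genes, *Has3*, *Acan* and *Hapln1*, had A below 0. Over all 10 without the filter, 2 had M < −0.5 and 3 had M > 0.5, where 14.9% and 10.1% of the 14149 genes with an M did so.

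**Figure D1:**
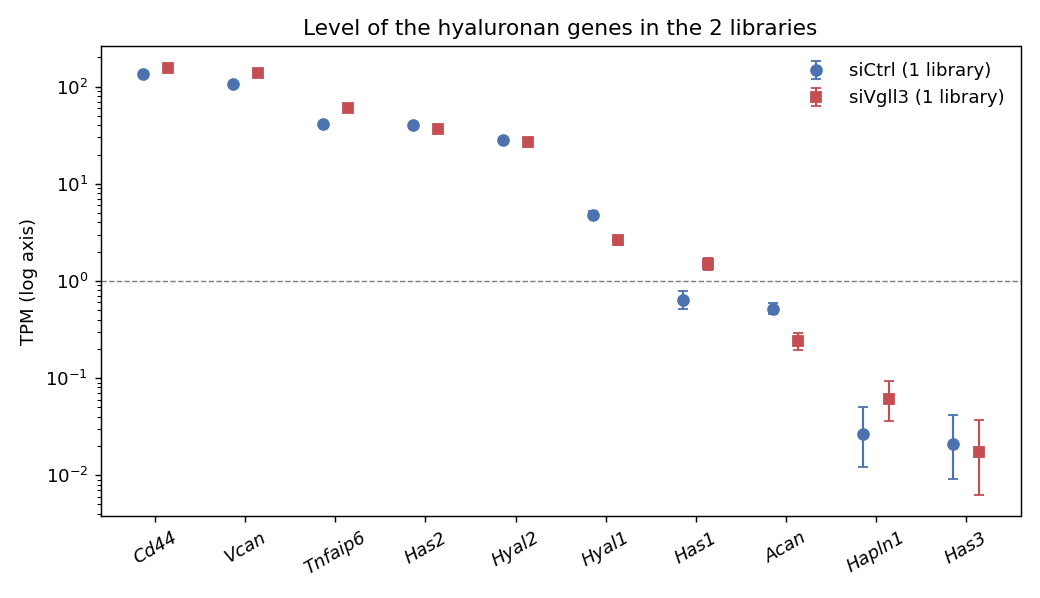
TPM of the 10 hyaluronan genes on a log axis in the siCtrl library (circles) and the siVgll3 library (squares), with exact Poisson intervals, ordered by mean TPM. The dashed line marks 1 TPM, and the genes span from 157 TPM for *Cd44* down to 0.0171 TPM for *Has3*, both in siVgll3.

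*Cd44* was the most abundant of the 10 in both libraries and *Vcan* came next. *Tnfaip6*, *Has2* and *Hyal2* followed, then *Hyal1*, and *Has1*, *Acan*, *Hapln1* and *Has3* were the least abundant. The order was the same in both libraries. In siCtrl, neighbours in this order whose counting intervals overlapped were *Tnfaip6* and *Has2*, *Has1* and *Acan*, and *Hapln1* and *Has3*. In si*Vgll3*, only *Hapln1* and *Has3* still overlapped. Summed over the 10 genes, the level was 357 TPM for siCtrl and 422 TPM for si*Vgll3*.

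The promoters of the 3 genes past a threshold are shown because TEAD factors, the DNA-binding partners of VGLL proteins, bind the motif CATTCC. Each stretch runs from 250 bases before to 50 bases after a transcription start in RefSeq (GRCm38.p6, the assembly also called mm10), 5′ to 3′ on the strand of the gene. Capitals mark CATTCC and TGANTCA, the latter the motif of AP-1, searched on both strands. The stretches are chr2:52037863-52038162 on the plus strand for *Tnfaip6*, chr17:17855139-17855438 on the minus strand for *Has1* and chr9:107576700-107576999 on the plus strand for *Hyal1*.
Tnfaip6: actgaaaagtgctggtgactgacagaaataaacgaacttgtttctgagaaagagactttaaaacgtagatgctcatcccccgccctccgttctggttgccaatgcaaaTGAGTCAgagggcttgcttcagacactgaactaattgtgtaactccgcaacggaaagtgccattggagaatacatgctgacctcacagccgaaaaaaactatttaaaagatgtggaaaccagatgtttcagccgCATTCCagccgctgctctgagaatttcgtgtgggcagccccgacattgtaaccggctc
Has1: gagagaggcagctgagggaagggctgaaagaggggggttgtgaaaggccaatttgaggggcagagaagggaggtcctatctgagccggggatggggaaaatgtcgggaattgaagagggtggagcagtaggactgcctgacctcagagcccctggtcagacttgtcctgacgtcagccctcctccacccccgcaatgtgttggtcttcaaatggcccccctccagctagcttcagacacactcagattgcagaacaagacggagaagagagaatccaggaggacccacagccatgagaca
Hyal1: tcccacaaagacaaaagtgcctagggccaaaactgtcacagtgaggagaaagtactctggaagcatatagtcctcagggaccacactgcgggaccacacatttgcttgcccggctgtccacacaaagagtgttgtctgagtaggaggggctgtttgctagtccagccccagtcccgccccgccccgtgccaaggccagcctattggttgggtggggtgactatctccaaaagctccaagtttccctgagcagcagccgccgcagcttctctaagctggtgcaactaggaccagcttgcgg

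In the *Tnfaip6* promoter, CATTCC began 8 bases and TGANTCA 142 bases before the start, while these stretches of *Has1* and *Hyal1* held neither. The promoter table held 8 of the 10 genes, all but *Has2* and *Has3*. CATTCC was found in 3 of the 8 promoters, those of *Acan*, *Hyal2* and *Tnfaip6*, and in 14.7% of all 32851 promoters of this length. TGANTCA was found in 1 of the 8 and in 7.81% of all promoters, and TATAAA, the TATA box, in 0 of the 8 and in 13.6%. The *Acan* match began 12 bases and the *Hyal2* match 229 bases before the start. The genes with a CATTCC match thus included 1 higher gene, 1 gene between the thresholds and 1 gene below the filter. These starts are not always the outermost end of the gene. The 5′ end of the gene in RefSeq lies further upstream for *Has1* (401 bases), *Hyal2* (1290), *Vcan* (515), *Hapln1* (107) and *Cd44* (4). In GENCODE the bases upstream were 1218 for *Hyal2*, 840 for *Hapln1*, 104 for *Tnfaip6*, 23 for *Hyal1*, 17 for *Has1*, −3 for *Vcan* and −257 for *Acan*. A minus sign means that the GENCODE end lies downstream of the start used here. A match is a stretch of letters and not evidence of binding. In the paper, siRNA against *Tead1* left the expression of fibrotic genes in cardiac myofibroblasts unchanged. The paper proposes that TEAD1 takes no part in the fibrotic pathway of VGLL3. A role of TEAD factors in the hyaluronan genes was not tested.

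The synthases were represented almost wholly by *Has2*, the main hyaluronan synthase of the developing heart. *Has2* (NCBI gene 15117, chromosome 15 from 56665627 to 56694546, minus strand) had 10878 siCtrl reads and 9127 si*Vgll3* reads. In TPM, the siCtrl library was at 40.1 [39.4, 40.9] and the si*Vgll3* library at 36.4 [35.7, 37.2]. It was slightly lower in si*Vgll3*, at 90.7% of the siCtrl level, with an M of −0.14 [−0.18, −0.10]. The antisense gene *Has2os*, whose exons overlap those of *Has2*, had 36 and 24 reads assigned to it, and its part in the *Has2* reads was not tested.

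*Has1*, a synthase with lower affinity for its substrates, went the other way. *Has1* (NCBI gene 15116, chromosome 17 from 17833691 to 17855589, minus strand) had 86 siCtrl reads and 184 si*Vgll3* reads. This gave 0.642 TPM [0.514, 0.793] for siCtrl and 1.49 TPM [1.28, 1.72] for si*Vgll3*. The library of si*Vgll3* was 2.32-fold higher, an M of 1.21 [0.84, 1.60], and the interval lay wholly above 0.5. In siCtrl, 14.0% of the genes listed with a TPM were below it, and 20.6% in si*Vgll3*, so *Has1* was a weakly expressed gene in both. Adding 1 TPM to each library gave it an M of 0.60.

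*Has3*, the synthase that makes shorter chains in cell systems, was barely detected, with 8 siCtrl reads and 6 si*Vgll3* reads. The siCtrl level was 0.0212 TPM [0.0092, 0.0418] and the si*Vgll3* level 0.0171 TPM [0.0063, 0.0373], an M of −0.31 [−2.11, 1.41]. No difference was detectable at this depth. *Has3* (NCBI gene 15118, chromosome 8 from 106870242 to 106882902, plus strand) shares exonic sequence with *Chtf8* on the opposite strand, which had 17580 and 20006 reads, and the strand setting of the counting is not given in the sources used here. The origin of the few *Has3* reads is therefore uncertain.

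Summed over the synthases, the level was 40.8 TPM for siCtrl and 37.9 TPM for si*Vgll3*. *Has2* made up 98.4% of that sum in siCtrl and 96.0% in si*Vgll3*, while the share of *Has1* was 1.57% and 3.93%. The 2.32-fold higher *Has1* thus left the summed synthase level lower in si*Vgll3*, as *Has2* was.

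The hyaluronidase genes lie next to each other on chromosome 9, with 4171 bases between them, and differed in M. *Hyal1* (NCBI gene 15586, 107576950 to 107581699, plus strand) encodes a lysosomal hyaluronidase. It had 710 siCtrl reads and 373 si*Vgll3* reads. In TPM, the siCtrl library was at 4.83 [4.48, 5.19] and the si*Vgll3* library at 2.62 [2.36, 2.90]. In si*Vgll3* it was thus at 54.3% of the siCtrl level, an M of −0.88 [−1.07, −0.70], with the whole interval below −0.5. From the read counts scaled by library totals (CPM), the M was −0.77. Exons of *Hyal1* overlap those of *Hyal3*, with 8 and 47 reads, and of *Naa80* (listed as *Nat6*), with 1523 and 1117 reads, both on the same strand, so the assignment of part of its reads is uncertain.

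*Hyal2* (NCBI gene 15587, 107567873 to 107572778, plus strand) encodes a hyaluronidase anchored at the cell surface, which cuts long chains into intermediate fragments. It had 3347 siCtrl reads and 2910 si*Vgll3* reads. This gave 28.3 TPM [27.4, 29.3] for siCtrl and 26.6 TPM [25.7, 27.6] for si*Vgll3*, an M of −0.09 [−0.16, −0.02]. The TPM intervals of the 2 libraries overlapped, although that of M excluded 0, and the difference was small beside that of *Hyal1*. *Hyal2* was 5.87 times as abundant as *Hyal1* in siCtrl and 10.2 times in si*Vgll3*. Of the summed level of both, 33.2 TPM for siCtrl and 29.3 TPM for si*Vgll3*, *Hyal1* made up 14.5% and 8.96%.

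**Figure D2:**
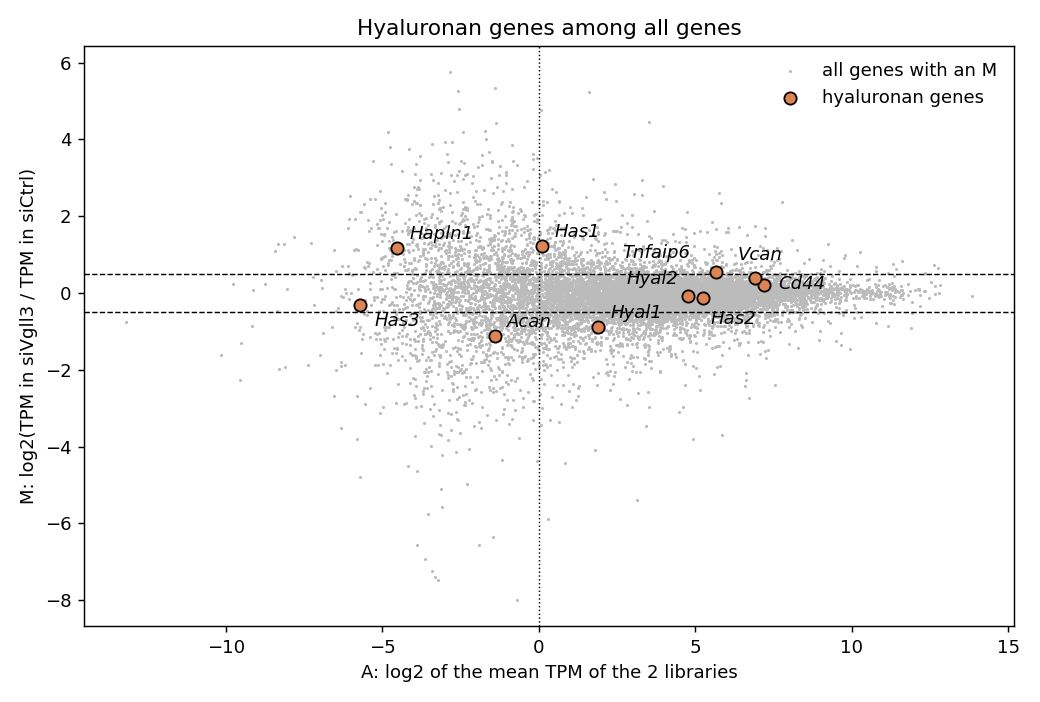
M (log2 ratio of siVgll3 to siCtrl TPM) against A (log2 of the mean TPM) for the 14149 genes with an M (grey) and the 10 hyaluronan genes (orange). Dashed lines mark M of −0.5 and 0.5 and the dotted line A of 0. *Has1*, at A of 0.09, stands next to the filter, and the abundant *Cd44* and *Vcan* lie between the thresholds.

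*Cd44*, the gene of the main cell-surface receptor for hyaluronan, was somewhat higher in si*Vgll3*. *Cd44* (NCBI gene 12505, chromosome 2 from 102811141 to 102901669, minus strand) had 38923 siCtrl reads and 41944 si*Vgll3* reads. The siCtrl level was 136 TPM [135, 137] and the si*Vgll3* level 157 TPM [155, 158]. This was 115% of the siCtrl level, an M of 0.20 [0.18, 0.22], which excluded 0 but lay wholly below the threshold. RefSeq lists 6 transcripts of *Cd44* with 9 to 19 exons, and one value per gene cannot separate the standard form from the variant forms.

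*Vcan* encodes versican, the large chondroitin sulfate proteoglycan of provisional matrix. *Vcan* (NCBI gene 13003, chromosome 13 from 89655309 to 89743027, minus strand) had 65954 siCtrl reads and 78812 si*Vgll3* reads. In TPM, the siCtrl library was at 106 [105, 106] and the si*Vgll3* library at 138 [137, 139]. At 130% of the siCtrl level, its M was 0.38 [0.37, 0.40], again between 0 and the threshold. *Vcan* was 2.63 times as abundant as *Has2* in siCtrl and 3.78 times in si*Vgll3*. The GENCODE matches of the 5 RefSeq transcripts of *Vcan* run from 2273 to 12427 bases, so its TPM depends on the length the authors assigned to the gene.

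*Acan*, which encodes aggrecan, the major proteoglycan of cartilage, differed from *Vcan* in both level and direction. *Acan* (NCBI gene 11595, chromosome 7 from 79053226 to 79115099, plus strand) had 244 siCtrl reads and 104 si*Vgll3* reads. This gave 0.518 TPM [0.455, 0.587] for siCtrl and 0.239 TPM [0.195, 0.289] for si*Vgll3*, 46.1% of the siCtrl level. The M was −1.12 [−1.46, −0.78], below −0.5 throughout its interval, but its A of −1.40 kept it out of the count of lower genes. Adding 1 TPM to each library gave it an M of −0.29.

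*Hapln1* encodes the link protein that locks these proteoglycans onto hyaluronan, and it lies 43476 bases from *Vcan*. *Hapln1* (NCBI gene 12950, chromosome 13 from 89540529 to 89611832, plus strand) had 9 siCtrl reads (0.0266 TPM) and 19 si*Vgll3* reads (0.0603 TPM). Its M of 1.18 had an interval from −0.03 to 2.51, so a difference was not detectable at this depth. This gene was thus near the limit of detection in both libraries, in which *Vcan* was among the better expressed genes.

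*Tnfaip6* encodes TSG-6, a secreted protein that transfers heavy chains of inter-alpha-inhibitor onto hyaluronan. *Tnfaip6* (NCBI gene 21930, chromosome 2 from 52038113 to 52056681, plus strand) had 4229 siCtrl reads and 5667 si*Vgll3* reads. The siCtrl level was 41.4 TPM [40.1, 42.6] and the si*Vgll3* level 59.9 TPM [58.4, 61.5]. The si*Vgll3* library was 1.45-fold higher, an M of 0.53 [0.48, 0.59], and this interval reached below the threshold of 0.5. *Tnfaip6* and *Has2* were at nearly the same level in siCtrl, a ratio of 1.03, and at a ratio of 1.65 in si*Vgll3*.

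Across the 10 genes, the interval of M excluded 0 for 8 and held 0 for *Has3* and *Hapln1*. For *Hyal2* it ended at −0.02 and M was −0.04 by CPM, so the exclusion of 0 there depends on the scaling. How many of all genes had an interval that excluded 0 was not counted, so the 8 have no background to be set against. The interval lay wholly beyond a threshold for *Has1*, *Hyal1* and *Acan*, which held adjoining places in the order of levels. Of all 11754 genes with A > 0, a filter that *Acan* did not pass, 977 lay wholly below −0.5 and 442 wholly above 0.5. Of the 5 most abundant genes, *Cd44*, *Vcan* and *Tnfaip6* had M above 0 and *Has2* and *Hyal2* had M below 0. Every gene kept the sign of its M under each of the 6 alternative scalings and added constants. Scaling by read counts in place of TPM raised M slightly for all 10 genes, and adding 1 TPM pulled *Has1*, *Acan*, *Hapln1* and *Has3* towards 0.

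**Figure D3:**
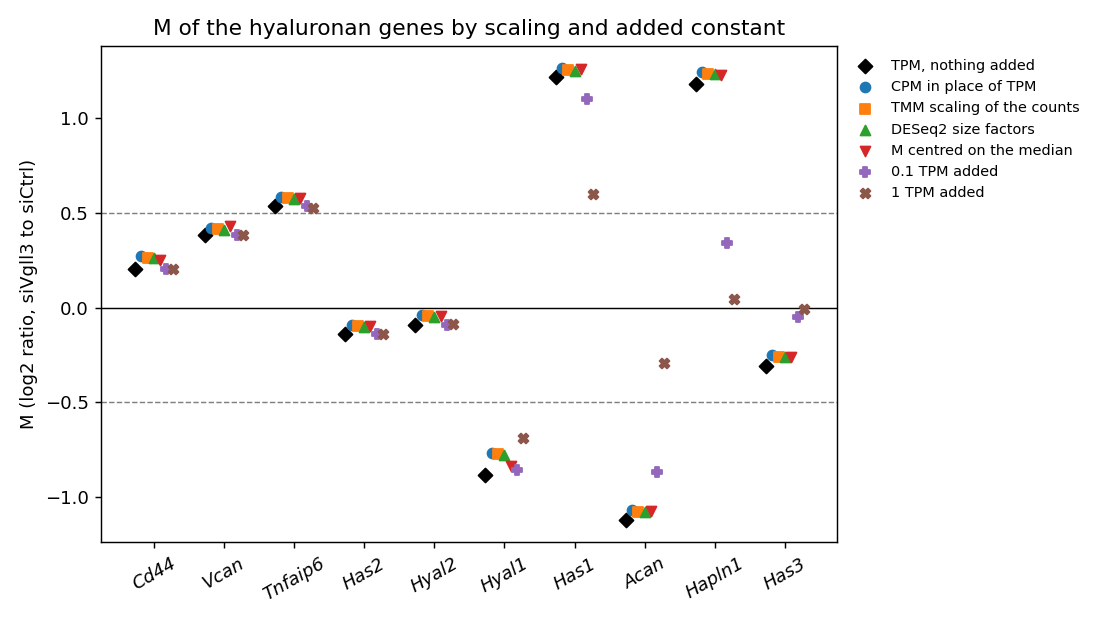
M of the 10 hyaluronan genes, ordered by A from left to right, under the reported scaling (black diamonds) and 6 alternatives (coloured symbols). Dashed lines mark −0.5 and 0.5. The symbols of the 5 most abundant genes lie close together, while those of *Acan* run from −1.12 to −0.29.

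The genes that supply the sugar nucleotides for hyaluronan were mostly within the thresholds. Of 12 such genes, all with A > 0, 1 was lower, 0 were higher and the median M was 0.13. Of all genes with A > 0, 11.4% were lower and 5.73% higher, the shares against which this and the following lists stand. *Gfpt2*, an isoform of the rate-limiting enzyme of hexosamine synthesis, had 238 TPM against 310 TPM (siCtrl first here and in the lists that follow), an M of 0.38. *Ugdh*, which makes UDP-glucuronic acid, was at 232 and 257 TPM, an M of 0.15. *Ugp2*, which makes its precursor UDP-glucose, was at 139 and 148 TPM, an M of 0.09. The lower gene was *Uap1l1*, related to the enzyme that forms UDP-N-acetylglucosamine, with an M of −0.85.

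Among 10 other turnover genes, 4 had no reads in either library, namely *Hyal4*, *Hyal5*, *Hyal6* and *Spam1*, and 5 had A > 0. A count of 0 allows up to 3 reads. *Cemip*, which encodes a protein needed for hyaluronan depolymerisation in fibroblasts, was the 1 lower gene, at 182 and 75.6 TPM. Its M was −1.27 [−1.29, −1.25], from 82753 and 31764 reads. *Cemip* was 4.54 times as abundant as *Has2* in siCtrl and 2.08 times in si*Vgll3*, and it exceeded *Hyal1* and *Hyal2* in both. *Hexa*, a subunit of the lysosomal hexosaminidases, was at 178 and 152 TPM, an M of −0.23. *Gusb*, the lysosomal glucuronidase, was at 108 and 119 TPM, an M of 0.14.

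Of 23 other hyaluronan-binding and partner genes, 7 had no reads and 6 had A > 0, with 0 lower, 1 higher and a median M of 0.16. The number of lower genes depended on the filter, and was 2 with CPM, 5 with at least 10 reads in each library and 6 without a filter. The higher gene was *Ptx3*, a pentraxin that binds TSG-6 in hyaluronan matrices, at 604 and 1126 TPM. Its M was 0.90 [0.89, 0.91], and it was 14.6 times as abundant as *Tnfaip6* in siCtrl and 18.8 times in si*Vgll3*. Of the inter-alpha-inhibitor heavy chains that TSG-6 transfers, *Itih2* alone had A > 0, at 4.34 and 5.05 TPM. *Itih2* is named after its values were seen. *C1qbp*, a mostly mitochondrial protein also described as a hyaluronan-binding protein, was at 177 and 242 TPM, an M of 0.45. *Layn*, a membrane receptor for hyaluronan, was at 92.4 and 91.7 TPM, an M of −0.01 that became 0.04 by CPM.

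The chondroitin sulfate chains of versican and aggrecan need their own enzymes, a list of 21 genes with 19 at A > 0. Of these, 4 were lower, 0 were higher and the median M was −0.19, where 11.4% and 5.73% of all genes with A > 0 were lower and higher. *Xylt1* and *Xylt2*, which start the chain on the core protein, had M of −0.69 and −0.65. *Chpf* and *Chsy1*, which extend it, had M of −0.60 and −0.50, and *Chsy1* was at −0.45 by CPM, within the threshold. *Chst12*, a sulfotransferase, was at 123 and 137 TPM, an M of 0.15, and *Dse*, an epimerase that converts the chain to dermatan sulfate, was at 115 and 100 TPM, an M of −0.19.

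The proteases that cut versican and aggrecan numbered 7, and all 5 with A > 0 had M below 0, 3 of them lower, with a median of −0.53. Of all genes with A > 0, 57.0% had M below 0 and 11.4% were lower. *Adamts5* was at 133 and 91.7 TPM, an M of −0.53, and *Adamts1* was at 117 and 72.9 TPM, an M of −0.68. *Adamts9* was at 35.0 and 25.4 TPM, an M of −0.46. *Adamts20*, at 3.67 and 0.471 TPM, was above 1 TPM in siCtrl only. Its M was −2.96 from TPM but −1.36 from its 637 and 222 reads by CPM, so its size depends on the unit. *Adamts5* was at −0.48 by CPM, above the threshold.

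Genes linked to CD44 numbered 8, and of the 7 with A > 0, 1 was lower and 1 was higher, with a median M of −0.22. *Msn*, which encodes moesin, a protein that ties the CD44 tail to actin, was at 620 and 919 TPM, an M of 0.57. *Mmp14*, a membrane metalloproteinase that sheds CD44, was at 443 and 281 TPM, an M of −0.66. *Adam10*, another sheddase, was at 177 and 152 TPM, an M of −0.22. *Cd44*, with an M of 0.20, lay between *Msn* and its sheddases.

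**Figure D4:**
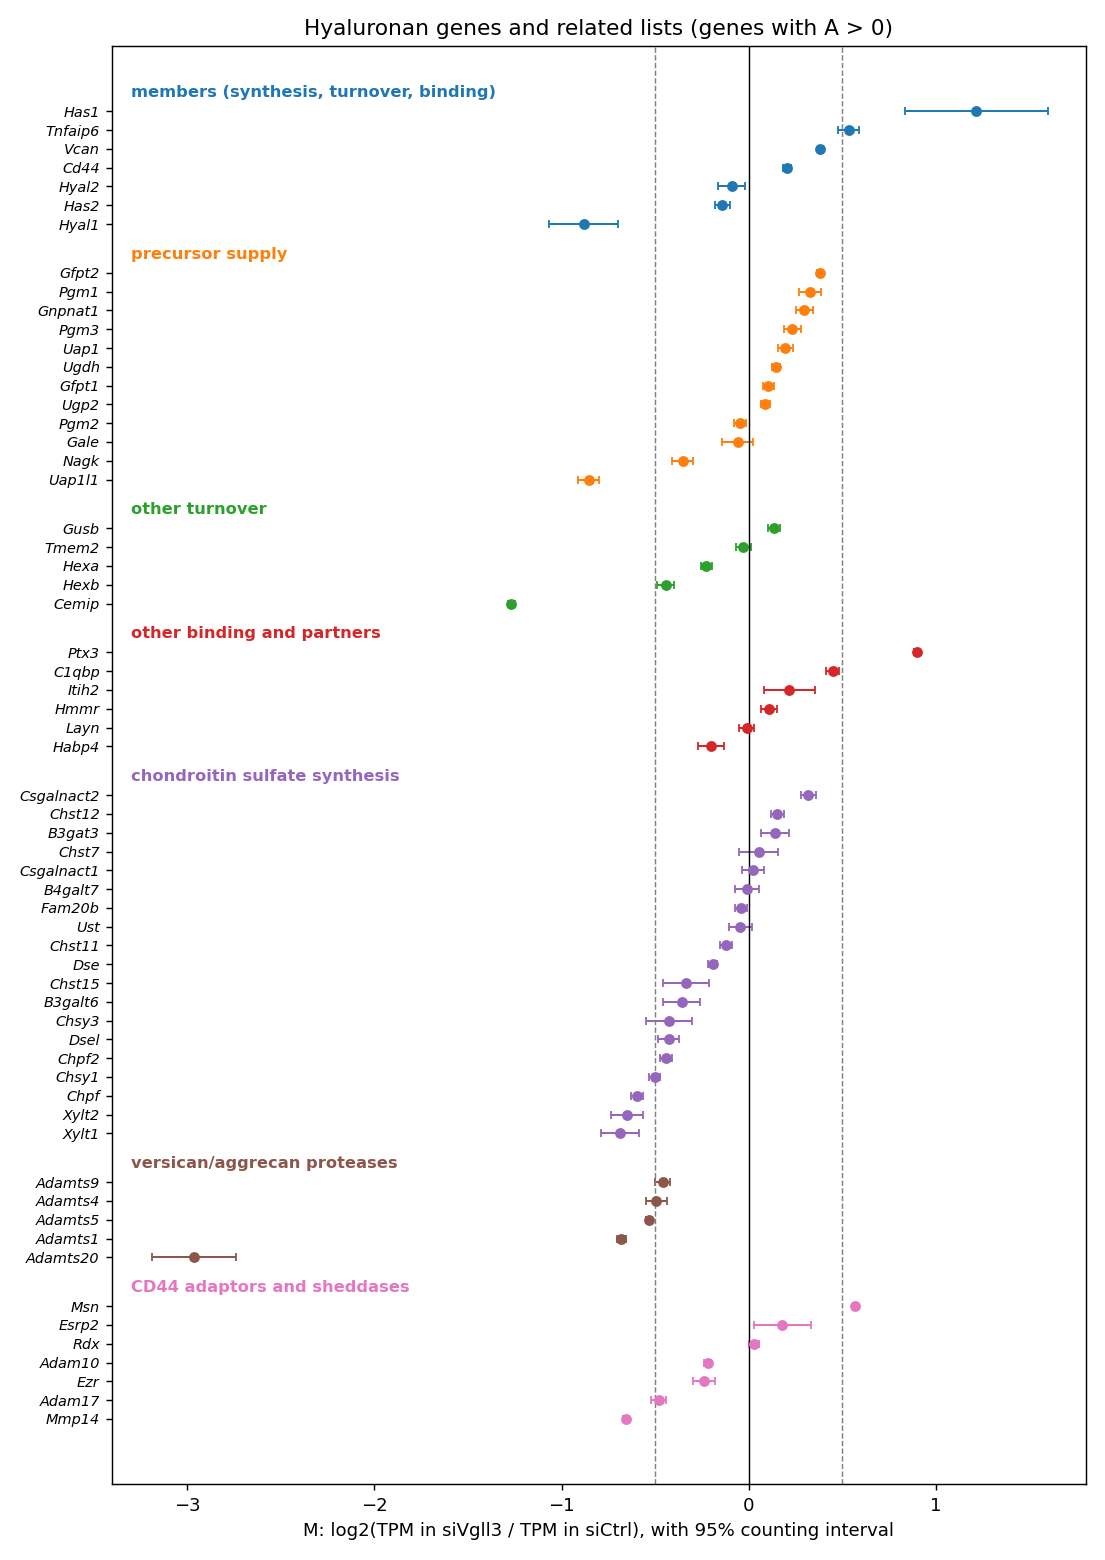
M with its 95% counting interval for the hyaluronan genes and for each related list, genes with A > 0 only. Dashed lines mark −0.5 and 0.5; all 5 versican and aggrecan proteases lie left of 0, and *Cemip* and *Ptx3* stand beyond the thresholds on opposite sides.

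Markers of myofibroblasts were abundant in both libraries, with a summed level of 26225 TPM for siCtrl and 24858 TPM for si*Vgll3* over 10 genes, of which 4 were lower and 2 higher and *Vim*, *Fn1* and *Col1a2* the most abundant. For these and the marker counts below, 11.4% of all genes with A > 0 were lower and 5.73% higher. Markers of other cell types were far less abundant, but several differed between the libraries. Of 10 leukocyte markers, 6 had no reads, *Ptprc* (CD45) among them, and the sum, mostly *Lyz2*, *Cd14* and *Csf1r*, was 15.0 and 8.46 TPM. Of the 4 with A > 0, 1 was lower, *Lyz2* at an M of −1.80. The 2 higher ones were *Cd14* at 0.62 and *Csf1r* at 0.50. The sum was 24.5 and 20.2 TPM over 6 endothelial markers, mostly *Tek*, *Cdh5* and *Pecam1*. Of these, *Tek* was lower, with an M of −0.54, while *Cdh5* and *Pecam1* had M of 0.50 and 0.47. Over 6 pericyte and smooth-muscle markers the sum was 46.1 and 98.1 TPM, with *Cnn1* far above *Cspg4* and *Rgs5*. *Cnn1*, the only one of them with A > 0, had an M of 1.13. *Cspg4* and *Rgs5* had M of −0.34 and −0.21, and the others with an M went both ways. Of 6 cardiomyocyte markers, 4 had no reads, *Myh6* among them, and *Tnnt2* was at 60.0 and 10.4 TPM. The mesothelial sum was 73.9 and 55.7 TPM over 6 genes led by *Upk3b*, *Upk1b* and *Krt19*, 3 lower and 2 higher. Of the 4 cartilage markers with A > 0, 3 were lower, where 11.4% of all genes with A > 0 were. *Matn3*, 1 of the 3 and named after its values were seen, passed the filter through siCtrl, at 1.71 and 0.506 TPM. The sum was 129 and 112 TPM over 10 genes led by *Sox9*, *Col2a1* and *Comp*, with M of −0.03, −0.76 and −1.18. The part of any of these markers in the values of the hyaluronan genes was not tested.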

How the data were processed

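RNA from the 2 cultures was sequenced as 1 library each. Per the paper's methods, the authors made libraries with a stranded mRNA kit, used Trimmomatic for trimming, HISAT2 for mapping to mm10 and StringTie for known genes (versions not given in the sources used here). The authors deposited raw read counts per gene, with no normalization, and TPM per gene, scaled for gene length and library size. Per-sample columns left unused numbered 0. M, A and their thresholds were computed from the deposited TPM without a constant, and intervals from the counts (Python 3.11.15, scipy 1.17.1), after a check on simulated data. The simulated counts were independent Poisson draws, the model that the intervals assume. That check could not address reads that share a molecule or variation between cultures. With constants added, A was taken from the unmodified TPM. Scaling alternatives used edgeR 4.0.16 (TMM) and DESeq2 1.42.0 (size factors), with no test. Positions and promoters came from RefSeq on GRCm38.p6. Exon overlaps, transcript lengths and exon counts came from GENCODE vM21 on the same assembly. A comparison of protein sequences was planned but not run.

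The 10 genes and all lists were chosen with earlier results of these data known. The rule for naming took all 10 genes, *Vgll3*, the 3 genes of each related list with the largest mean TPM and every list gene past a threshold, and of each marker list the 3 most abundant and a count of those at 0. The motifs TGANTCA and TATAAA were added after values were seen.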

Additional observations from a re-analysis of the deposited data

How the results depend on the processing

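No paired analysis was possible because only 1 library was made for a condition. Of the 10 genes, 1 was lower and 2 were higher as reported. Lower genes numbered 2 with CPM in place of TPM, with at least 10 reads in each library or without the filter, since *Acan* then entered the count, and 0 with A > 2 or a threshold of 1 on M. Higher genes numbered 1 with A from averaged log2 values or with A > 2, both of which removed *Has1*, and 1 with a threshold of 1 or when the whole interval had to lie beyond 0.5, both of which removed *Tnfaip6*. The median M of 0.20 became 0.12 with CPM, 0.26 with TMM or DESeq2's size factors, 0.25 when centred on all genes, and 0.057 with A from averaged log2 values, with at least 10 reads or with no filter. Over all genes, 1341 lower and 674 higher genes became 2103 and 1428 without the filter and 384 and 207 with a threshold of 1. They became 1853 and 1159 with at least 10 reads, 928 and 393 with A > 2, and 977 and 442 by the whole interval. In the related lists, the binding genes had 0 lower as reported, against 2 with CPM, 5 with at least 10 reads and 6 without the filter. The proteases had 3 lower, against 5 without the filter and 1 with a threshold of 1. With that threshold, 0 of the 4 lower chondroitin sulfate genes, 0 of the 1 lower precursor gene, 0 of the 1 higher binding gene and 0 of the 2 CD44-linked genes past 0.5 were left. The other turnover genes had 0 higher, against 1 without the filter. Lower chondroitin sulfate genes numbered 3 with CPM, TMM, DESeq2's size factors or M centred on all genes. They also numbered 3 with 1 TPM added or by the whole interval, and 5 with at least 10 reads or without the filter. Over 79 genes and 474 single-gene values, 319 stayed within the counting interval and 18 changed sign, in *Pgm2*, *Tmem2*, *Layn*, *B4galt7*, *Fam20b* and *Ust*, all with M within 0.05 of 0, and in 0 of the 10 genes. Depth limits *Has3* and *Hapln1*, with under 20 reads in each library.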

Other observations

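Hyaluronan-related genes of low level, with A below 0 and chosen here after their values were seen, also differed between the libraries. *Hapln4*, a link protein gene known from brain, had 234 siCtrl reads and 86 si*Vgll3* reads, an M of −1.33 [−1.71, −0.97]. *Lyve1*, the hyaluronan receptor of lymphatic endothelium and some macrophages, had 124 and 62 reads, an M of −0.89 [−1.35, −0.44]. *Itih5* and *Itih4*, relatives of the inter-alpha-inhibitor heavy chains, had 264 and 71 reads and 80 and 32 reads, with M of −1.78 and −1.24. Not all low genes of that kind were lower, and *Stab1*, a scavenger receptor gene, had 237 and 279 reads, an M of 0.35 [0.10, 0.61]. *Hyal3*, which shares exonic sequence with *Hyal1*, had 8 and 47 reads, an M of 2.66 [1.56, 3.95], on the other side of 0 from *Hyal1*.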
